A study of Homo sapiens with 9 samples.

Results

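The constitutive proteasome subunits were described in HCN-2 cells, a line that the study names human cortical neuronal. Cells were taken 24 h after transfection with a mimic of miR-140-3p or miR-126-5p or with a scrambled control mimic. Each was used as 3 μL of a 20 μM stock. The members are the rows of the expression table that carry exactly 1 gene symbol and whose symbol names a subunit of the PSMA, PSMB, PSMC or PSMD series, without the interferon-inducible PSMB8, PSMB9 and PSMB10. They were 42 rows of 33 genes, out of 36176 rows with 1 symbol in a table of 138745 rows. By class they comprised 8 alpha ring rows (PSMA1 to PSMA8), 9 beta ring rows of 8 genes, 13 ATPase rows of 5 genes and 12 non-ATPase rows. Of the 42 rows, 33 had an Entrez gene identifier, 1 for each gene, and the other 9 (1 of PSMB2, 1 of PSMC1, 6 of PSMC4 and 1 of PSMC6) had none. PSMC5, PSMD7 and PSMD13 were not analysed here.

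Each set had 3 arrays of total RNA, and all values below are deposited log2 signals. The same scrambled control arrays served both mimic comparisons, so these comparisons are not independent. Whether the RNA of a set came from separate wells is not in the labels, so the p-values measure only the spread between these arrays. The median over rows with 1 symbol was 5.61 to 5.74 per array, and negative control rows averaged 3.67 to 3.89. Marker genes were set beside the neuronal label, and no cell type was called from them. Of 13 measured neuronal markers, 6 lay above the median of the table. That median was 4.99 over all rows other than control rows. Of these 6, RBFOX3 (5.29) and SYN1 (5.23) lay below the medians of the rows with 1 symbol. Neurofilament medium chain NEFM averaged 13.06 and microtubule-associated MAP2 9.04 over the 9 arrays, whereas neurofilament light chain NEFL, SNAP25 and ELAVL4 averaged 3.66, 4.03 and 3.67, near the negative control rows. MAP2 was lower on every mimic array than on every control array, by −0.67 with miR-140-3p (adjusted p = 0.326) and −0.52 with miR-126-5p (adjusted p = 0.354), while NEFM differed by 0.53 (adjusted p = 0.533) and 0.02. Of 7 measured fibroblast markers, 6 lay above the table median, with the collagen gene COL1A1 at 15.17. The mean over the fibroblast markers was 14.29 to 14.43 on miR-140-3p arrays, 14.24 to 14.34 on miR-126-5p arrays and 14.11 to 14.44 on control arrays, and over the neuronal markers it was 5.88 to 6.01, 5.79 to 5.89 and 5.90 to 6.04 in the same order of sets. Of 7 microglia and leukocyte markers, 4 lay above the table median, of which PTPRC (5.39) lay below the medians of the rows with 1 symbol. The mean over the 7 markers was 6.17 to 6.30, 6.06 to 6.24 and 6.26 to 6.52 in the same order of sets. Among all the marker lists, CD68, a lysosomal protein of macrophages, was the only gene past an adjusted p of 0.05: it measured 12.24, 11.93 and 12.20 in miR-140-3p cells, 11.83, 11.85 and 12.08 in miR-126-5p cells, and 12.79, 12.98 and 13.26 in control, with a difference of −0.89 ± 0.18 for miR-140-3p (adjusted p = 0.0859) and −1.09 ± 0.18 for miR-126-5p (adjusted p = 0.0156). This call was lost without miR-126-5p replicate 1 (adjusted p = 0.114) or 2 (0.102) and without control replicate 2 (0.0694) or 3 (0.0955), and also without moderation of the variance (0.184) and with every row of the table fitted (0.0991). The microglial genes AIF1 and P2RY12 averaged 4.19 and 3.73. The part of cell composition in the results below was not tested, and in a bulk sample fewer cells of a type and less RNA per cell cannot be told apart.

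The proteasome is the main protease for proteins tagged with ubiquitin. Its 20S core is a barrel of stacked rings, in which outer alpha rings gate the entry and inner beta rings hold the catalytic sites of PSMB5 (chymotrypsin-like), PSMB6 (caspase-like) and PSMB7 (trypsin-like). The 19S particle caps the barrel: its PSMC subunits form an ATPase ring that unfolds substrates and threads them into the core, and most of its PSMD subunits form the base and lid that bind and remove ubiquitin. Subunit genes are known to be regulated together, with NFE2L1 as the factor that raises them when proteasome activity falls short. In neurons, proteasome activity is known for roles in synaptic remodelling and in the removal of misfolded proteins.

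The transfected miRNAs and 3 of the subunit promoters are shown as sequences. The mature miRNAs are shown because their seeds (bases 2 to 8, in capitals) differ, so the mimic sets stand for different seed families. Both come from RefSeq on GRCh38.p14, hsa-miR-140-3p from chr16:69933142-69933162 and hsa-miR-126-5p from chr9:136670616-136670636, each on the plus strand.
hsa-miR-140-3p: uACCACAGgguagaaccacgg
hsa-miR-126-5p: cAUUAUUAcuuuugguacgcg

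The 250 bases before the annotated start were available from RefSeq for 28 of the 33 genes, in 33 windows. Those of PSMA4 (chr15:78540536-78540785), PSMC6 (chr14:52706950-52707199) and PSMD3 (chr17:39980557-39980806), all on the plus strand of GRCh38.p14, are printed. These 3 genes stand for an alpha ring, an ATPase and a lid member, and each window holds a searched motif. Each gene had an unadjusted limma p under 0.05 in at least 1 comparison below, and none passed an adjusted p of 0.05. Motif letters are in capitals. The printed PSMA4 window, 1 of 3 for this gene, holds an antioxidant response element, the kind of site that NFE2L1 is known to bind (TGACNNNGC), and a CCAAT box on the minus strand.
PSMA4: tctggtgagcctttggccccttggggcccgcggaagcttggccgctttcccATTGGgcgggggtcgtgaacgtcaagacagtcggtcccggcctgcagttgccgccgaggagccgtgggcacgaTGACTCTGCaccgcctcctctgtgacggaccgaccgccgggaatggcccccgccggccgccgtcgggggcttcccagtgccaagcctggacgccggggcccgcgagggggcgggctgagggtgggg
PSMC6: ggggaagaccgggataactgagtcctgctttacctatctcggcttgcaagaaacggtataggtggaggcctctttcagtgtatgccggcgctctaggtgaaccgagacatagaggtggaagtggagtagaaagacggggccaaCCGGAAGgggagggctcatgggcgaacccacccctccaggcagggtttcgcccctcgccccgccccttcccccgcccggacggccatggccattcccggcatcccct
PSMD3: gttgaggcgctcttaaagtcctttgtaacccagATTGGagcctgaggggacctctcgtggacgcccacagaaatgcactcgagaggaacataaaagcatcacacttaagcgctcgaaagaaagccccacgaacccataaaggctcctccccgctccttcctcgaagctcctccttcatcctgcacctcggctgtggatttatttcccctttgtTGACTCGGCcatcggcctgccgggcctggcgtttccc

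The PSMC6 window holds an ETS site (CCGGAAG), and the PSMD3 window holds an antioxidant response element and a CCAAT box. Each motif was searched on both strands, and in the printed windows no motif shares letters with another. The element TGACNNNGC was in 18.2% of the 33 subunit windows, against 10.9% of all 35116 RefSeq windows of the same length. CCAAT was in 42.4% of the subunit windows, against 32% of all windows, and CCGGAAG in 21.2%, against 8.52%. The interferon-stimulated response element, searched as GAAANNGAA, was in 6.06% of the subunit windows, against 6.88% of all windows. The subunit genes with that element were PSMB4 and PSMA4, which has it in another of its windows (chr15:78540155-78540404), and the remaining PSMA4 window held none of the 4 motifs. These matches describe letters in the windows, and they were not tested for binding.

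No member passed an adjusted p of 0.05 (limma with Benjamini-Hochberg adjustment over all 36176 rows) in any comparison. By the same rule 0.238% of all rows passed in miR-140-3p vs. control, 0.379% in miR-126-5p vs. control and 0 rows in miR-140-3p vs. miR-126-5p. The lowest adjusted p of a member was 0.154, 0.163 and 0.456 in the same order of comparisons. At an unadjusted p under 0.05, 6, 3 and 4 of the 42 rows differed, against 8.52%, 10.4% and 9.06% of all rows.

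The thresholds of the study's methods, an unadjusted p under 0.05 and a difference of more than 0.32 on the log2 scale, are looser. In miR-140-3p vs. control, 6 of the 42 rows were lower at these thresholds (14.3%) and 0 were higher, while 5.16% of all rows were lower and 3.35% higher. Over the 33 Entrez rows, 1 per gene, 4 were lower (12.1%). Among the rows above the median level of the table, 6.23% were lower. The 6 rows were PSMA2, PSMA4, PSMA6, both rows of PSMC6 and 1 row of PSMC4 without an Entrez identifier. In miR-126-5p vs. control, 3 rows were lower (PSMA6, PSMA7 and PSMD4) and 0 higher. This share of 7.14% lay close to the 6.83% of all rows and below the 9.34% of rows above the median level. Of all rows, 3.57% were higher. Between the mimics, 2 rows were lower in the miR-140-3p set (PSMC4 and PSMC6, both without an Entrez identifier) and 2 were higher (PSMD3 and PSMD4), each 4.76% of the members, against 3.99% lower and 5.07% higher among all rows. The counts rested on few arrays: in miR-140-3p vs. control the 6 rows became 3 without miR-140-3p replicate 2, 3 without control replicate 1 and 2 without control replicate 3. The 3 rows of miR-126-5p vs. control became 1 without miR-126-5p replicate 1, without miR-126-5p replicate 3 or without control replicate 3, and between the mimics the 4 rows became 1 without miR-140-3p replicate 1 and 2 without any 1 of the miR-126-5p arrays.

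**Figure D1:**
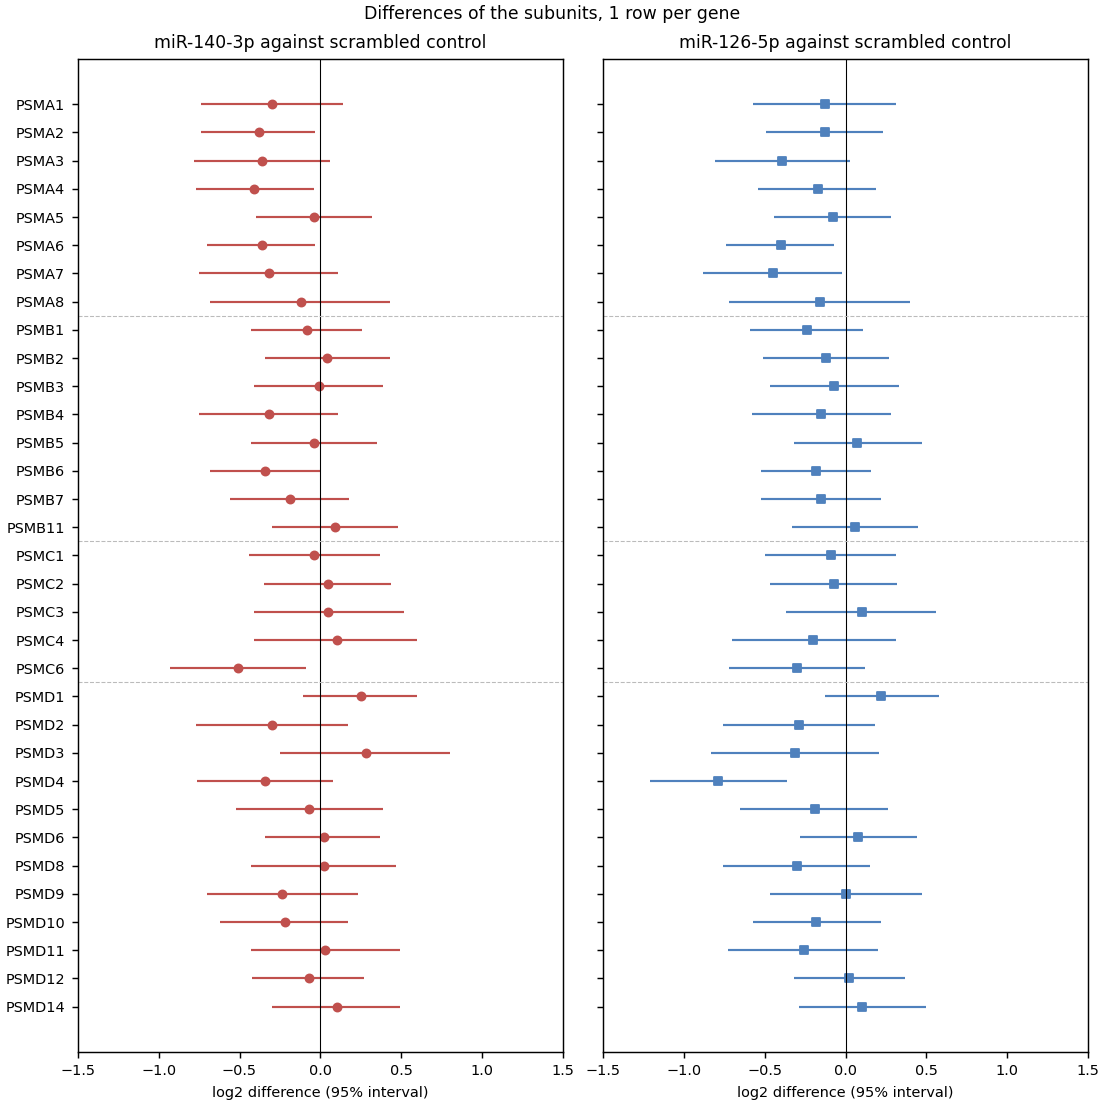
Log2 differences (horizontal axis) of the 33 rows with an Entrez identifier, 1 per gene, in miR-140-3p vs. control (left) and miR-126-5p vs. control (right). Points are limma estimates, lines are 95% intervals, and dashed lines separate the alpha ring, beta ring, ATPase and non-ATPase classes. All 8 alpha ring points lie left of 0 in both panels, and most intervals cross 0.

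Over the 33 Entrez rows, the alpha ring had the lowest class median in miR-140-3p vs. control, at −0.34 on the log2 scale, and all 8 of its genes were below control. The beta ring had a median of −0.06 with 6 of 8 genes below, the ATPases 0.05 with 2 of 5 below and the non-ATPase subunits −0.03 with 6 of 12 below. In miR-126-5p vs. control the 4 medians were closer together, at −0.17, −0.13, −0.09 and −0.18 in the same order, with 8 of 8, 6 of 8, 4 of 5 and 7 of 12 genes below. Leaving out 1 array at a time moved the miR-126-5p medians to between −0.26 and −0.10 in the alpha ring (7 to 8 genes below), −0.23 and −0.02 in the beta ring (4 to 7), −0.23 and −0.02 among the ATPases (3 to 5) and −0.20 and −0.07 among the non-ATPase subunits (6 to 11). It moved the miR-140-3p medians to between −0.21 and −0.01 in the beta ring, −0.11 and 0.11 among the ATPases and −0.10 and 0.05 among the non-ATPase subunits, and the miR-140-3p counts to between 6 and 8 in the alpha ring, 4 and 8 in the beta ring, 1 and 5 among the ATPases and 5 and 10 among the non-ATPase subunits. Over all 42 rows the medians were −0.07 (27 rows or 64.3% below) and −0.15 (34 rows or 81% below), whereas over all rows they were −0.02 (53.6% below) and −0.04 (56% below), and over the rows above the median level, where 38 of the 42 members lay, −0.04 and −0.06. Single arrays moved the first of the member medians to −0.16 (without miR-140-3p replicate 1, 37 rows below), −0.03 (without miR-140-3p replicate 2), −0.15 (without control replicate 2) and −0.01 (without control replicate 3, 21 rows below). The median in miR-126-5p vs. control became −0.08 without control replicate 1 and −0.09 without control replicate 3. A second quantile normalization, which makes the 1-symbol rows alike in distribution on every array, moved the medians of the 42 rows to −0.00 and −0.01, with 21 and 23 rows below. Under it the alpha ring kept 7 of 8 genes below with a median of −0.28 in miR-140-3p vs. control and 5 of 8 with a median of −0.09 in miR-126-5p vs. control, whereas the beta ring median turned to 0.02 and 0.03. Across scalings the beta ring median thus changed sign, and the median of the 42 rows shrank to about 0 in both comparisons.

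The alpha ring subunits gave the most even pattern. PSMA6 measured 13.33, 13.35 and 13.30 in miR-140-3p cells, 13.22, 13.39 and 13.26 in miR-126-5p cells, and 13.73, 13.50 and 13.84 with scrambled control. Every array of either mimic was below every control array. The log2 difference was −0.36 ± 0.15 (SE, adjusted p = 0.547) for miR-140-3p and −0.40 ± 0.15 (adjusted p = 0.395) for miR-126-5p, with n = 3 in each set. PSMA4 measured 12.57, 12.20 and 12.65 in miR-140-3p cells, 12.77, 12.58 and 12.76 in miR-126-5p cells, and 12.81, 12.86 and 12.96 in control. Again the mimic arrays did not reach the control arrays, although the second miR-140-3p array was well below its 2 companions. Its difference was −0.41 ± 0.17 for miR-140-3p (unadjusted p = 0.0313, adjusted p = 0.537) and −0.17 ± 0.17 for miR-126-5p, and without miR-140-3p replicate 2 the first became −0.27.

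PSMA2 measured 12.04, 12.21 and 12.16 in miR-140-3p cells, 12.50, 12.31 and 12.36 in miR-126-5p cells, and 12.64, 12.26 and 12.66 in control. The miR-140-3p arrays were below all others, and the miR-126-5p arrays overlapped the control. The difference was −0.38 ± 0.16 for miR-140-3p (adjusted p = 0.549), −0.13 ± 0.16 for miR-126-5p and −0.25 ± 0.16 for miR-140-3p vs. miR-126-5p (adjusted p = 0.671). PSMA7, which the germline subunit PSMA8 is known to replace in testis, measured 12.02, 11.78 and 11.94 in miR-140-3p cells, 11.56, 11.90 and 11.89 in miR-126-5p cells, and 12.62, 11.93 and 12.14 in control. The first control array stood above the rest, and the miR-126-5p arrays were all below control, if by little. The PSMA7 difference was −0.32 ± 0.20 for miR-140-3p and −0.45 ± 0.20 for miR-126-5p (unadjusted p = 0.0416, adjusted p = 0.461), and without control replicate 1 the miR-126-5p difference was −0.25.

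PSMA3 and PSMA1 were also lower on average without separating from control, by −0.36 and −0.30 with miR-140-3p and by −0.39 and −0.13 with miR-126-5p. PSMA5 was nearest to 0, with −0.04 (95% interval −0.40 to 0.32) for miR-140-3p and −0.08 (−0.44 to 0.28) for miR-126-5p. PSMA8 lay between 3.52 and 4.31 with miR-140-3p, between 3.57 and 3.96 with miR-126-5p and between 3.48 and 4.39 in control, which overlaps the level of the negative control rows. Its differences were −0.12 and −0.16, and the other 7 alpha genes had a signal above the table median.

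**Figure D2:**
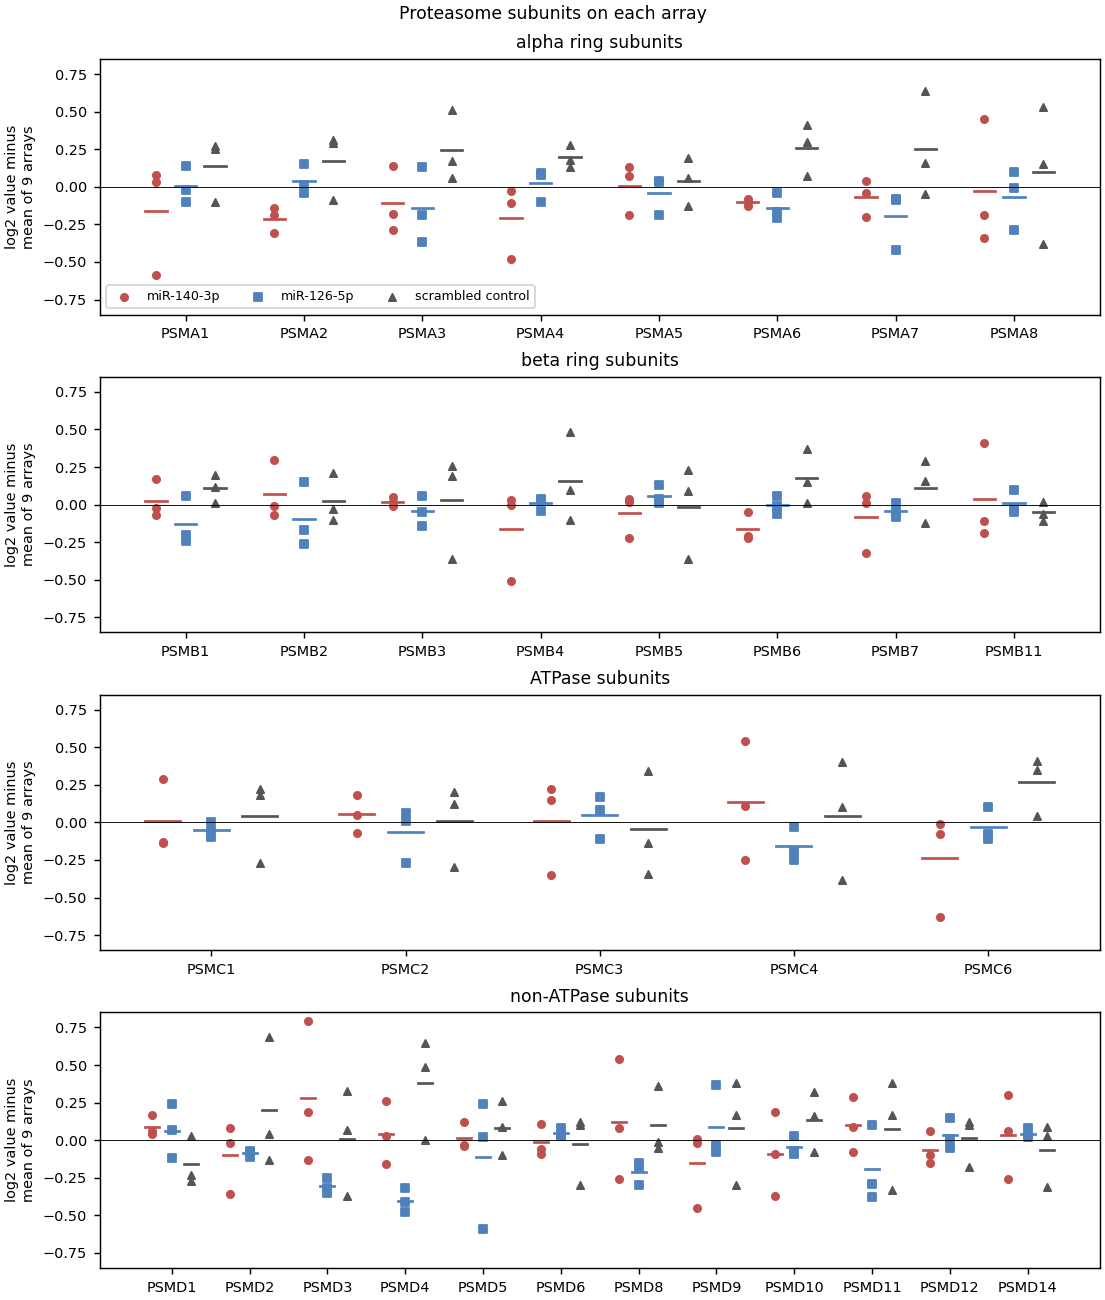
Deviation of each array from the row's mean over the 9 arrays (vertical axis, log2), for the 33 Entrez rows in 4 panels by class. Circles are miR-140-3p, squares miR-126-5p and triangles scrambled control, with a short line at each mean of 3. PSMA2, PSMA4, PSMA6, PSMB6 and PSMC6 have all miR-140-3p circles below all control triangles. PSMA4, PSMA6, PSMA7, PSMD4 and PSMD8 have all miR-126-5p squares below all control triangles.

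Among the beta subunits, none passed the methods' thresholds. PSMB5 measured 10.62, 10.36 and 10.60 in miR-140-3p cells, 10.62, 10.71 and 10.59 in miR-126-5p cells, and 10.81, 10.22 and 10.67 in control. The 3 sets overlapped, and the control arrays spanned both mimic sets. The differences were −0.04 (95% interval −0.43 to 0.35) and 0.07 (−0.32 to 0.47). With 3 arrays a set, these intervals leave room for a change of up to 0.47 on the log2 scale. PSMB6 measured 9.76, 9.77 and 9.93 in miR-140-3p cells, 9.92, 9.97 and 10.04 in miR-126-5p cells, and 10.35, 9.99 and 10.13 in control. The miR-140-3p arrays stayed below the control arrays, while those of miR-126-5p overlapped them. Its differences were −0.34 (−0.68 to 0.00, unadjusted p = 0.0519, adjusted p = 0.591) and −0.18 (−0.52 to 0.16), and −0.16 for miR-140-3p vs. miR-126-5p. PSMB7 measured 12.89, 12.51 and 12.84 in miR-140-3p cells, 12.84, 12.75 and 12.78 in miR-126-5p cells, and 13.12, 12.71 and 12.99 in control. These arrays overlapped, with differences of −0.19 (−0.56 to 0.18) and −0.15 (−0.52 to 0.22).

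The structural beta subunits varied as little. PSMB4 differed by −0.32 ± 0.20 and −0.15 ± 0.20 and PSMB3 by −0.01 ± 0.18 and −0.07 ± 0.18 against control, for miR-140-3p first. PSMB1 had the lowest p of the ring in miR-126-5p vs. control, at 9.74, 10.00 and 9.70 with miR-126-5p and 9.95, 10.14 and 10.06 in control (difference −0.24 ± 0.16, adjusted p = 0.653). PSMB2 had 2 rows, whose differences were 0.04 and −0.06 for miR-140-3p and −0.12 and −0.05 for miR-126-5p. PSMB11, the beta subunit of the thymus, averaged 4.98 in miR-140-3p cells, 4.95 in miR-126-5p cells and 4.89 in control, below the table median.

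PSMC6 had the lowest unadjusted p among the ATPase genes with miR-140-3p, and 2 rows carried its symbol. The Entrez row measured 9.80, 9.25 and 9.87 in miR-140-3p cells, 9.80, 9.98 and 9.77 in miR-126-5p cells, and 10.29, 9.92 and 10.23 in control. The other row measured 6.41, 7.31 and 7.71 in miR-140-3p cells, 8.08, 7.86 and 7.97 in miR-126-5p cells, and 7.98, 8.64 and 9.01 in control. In both rows each miR-140-3p array was below each control array, and in the second row also below each miR-126-5p array. The Entrez row differed by −0.51 ± 0.19 for miR-140-3p (unadjusted p = 0.0218, adjusted p = 0.519) and −0.30 ± 0.19 for miR-126-5p, and without miR-140-3p replicate 2 the first was −0.32. The second row differed by −1.40 ± 0.31 for miR-140-3p (0.379-fold, unadjusted p = 0.000725, adjusted p = 0.154), −0.57 ± 0.31 for miR-126-5p and −0.83 ± 0.31 for miR-140-3p vs. miR-126-5p (adjusted p = 0.493). The difference between the mimics became −0.46 without miR-140-3p replicate 1 (unadjusted p = 0.119), which ended its call at the methods' thresholds. Its miR-140-3p difference stayed between −1.68 and −1.03 under the 17 alternatives that kept the row, with adjusted p from 0.0549 to 0.529. What part of the gene this row covers is not given in the sources used here.

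PSMC4 had 7 rows, 6 of them without an Entrez identifier and labelled unmapped in the table, and they did not move together. The Entrez row measured 11.27, 10.48 and 10.84 in miR-140-3p cells, 10.53, 10.48 and 10.70 in miR-126-5p cells, and 10.35, 10.83 and 11.13 in control, with sets that overlapped and differences of 0.10 and −0.20. An unmapped row with a mean of 5.02 over the 9 arrays measured 5.03, 4.30 and 4.28 in miR-140-3p cells, 5.23, 5.19 and 5.31 in miR-126-5p cells, and 5.28, 5.45 and 5.13 in control. Here the miR-140-3p arrays lay below all 6 others. The mean of this row was close to the table median of 4.99. The miR-140-3p values of 4.30 and 4.28 lay between that median and the negative control rows (3.67 to 3.89). The difference of this row was −0.75 ± 0.21 vs. control (adjusted p = 0.317) and −0.71 ± 0.21 vs. miR-126-5p (adjusted p = 0.456). The other 5 unmapped rows differed by −0.17, 0.03, 0.09, −0.08 and 0.12 in miR-140-3p vs. control and by −0.18, −0.13, −0.14, −0.22 and −0.01 in miR-126-5p vs. control. That row therefore stood apart from the other rows of its gene, and no value here shows which of them follows the PSMC4 transcript.

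**Figure D3:**
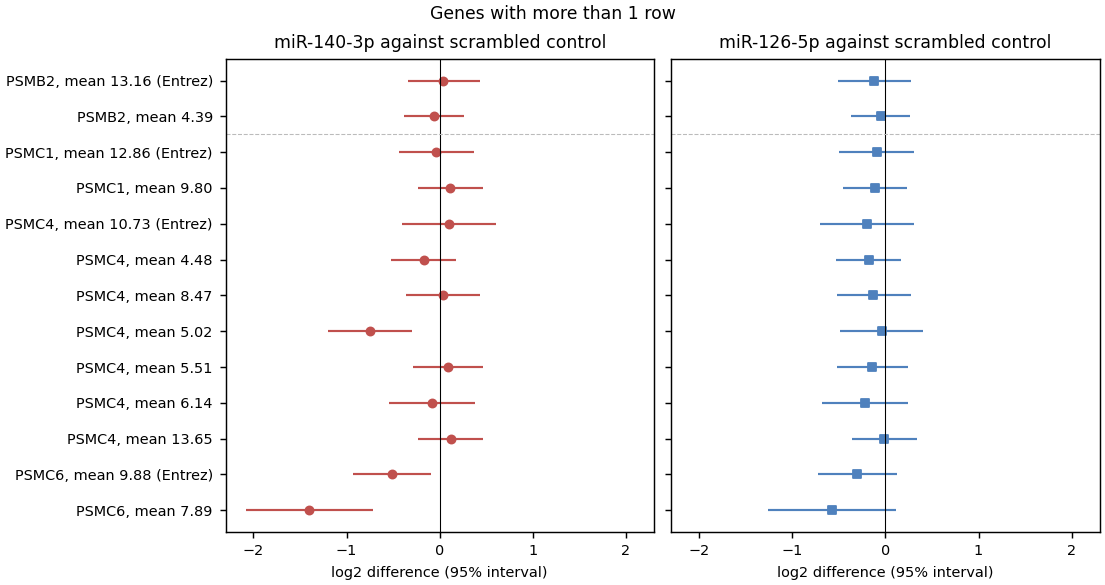
Log2 differences with 95% intervals (horizontal axis) of each row of the 4 genes with more than 1 row, in miR-140-3p vs. control (left) and miR-126-5p vs. control (right). Row labels give the gene and its mean log2 value over 9 arrays. Both PSMC6 intervals lie below 0 on the left, whereas only 1 of the 7 PSMC4 rows does, at −0.75.

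The remaining ATPases were close to control. PSMC2 measured 14.01, 13.76 and 13.88 in miR-140-3p cells, 13.56, 13.89 and 13.84 in miR-126-5p cells, and 13.95, 13.53 and 14.03 in control. Its differences were 0.05 (95% interval −0.35 to 0.44) and −0.07 (−0.47 to 0.32), and the sets overlapped fully. PSMC3 differed by 0.05 and 0.10, and the 2 rows of PSMC1, an ATPase whose tail docks into the alpha ring to open the gate, by −0.04 and 0.11 for miR-140-3p and −0.09 and −0.11 for miR-126-5p.

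PSMD4, a ubiquitin receptor of the 19S particle, had the lowest p of all members in miR-126-5p vs. control. It measured 11.09, 10.67 and 10.86 in miR-140-3p cells, 10.42, 10.51 and 10.35 in miR-126-5p cells, and 11.48, 10.83 and 11.32 in control. The miR-126-5p arrays were below every array of both other sets, while miR-140-3p overlapped the control. The difference was −0.79 ± 0.19 for miR-126-5p (0.58-fold, unadjusted p = 0.00152, adjusted p = 0.163), −0.34 ± 0.19 for miR-140-3p (adjusted p = 0.664) and 0.45 ± 0.19 for miR-140-3p vs. miR-126-5p (adjusted p = 0.534). Under the 18 alternatives the miR-126-5p difference ranged from −0.98 to −0.63 and stayed past the methods' thresholds, and the adjusted p ranged from 0.072 to 0.471.

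PSMD3, a scaffold subunit of the lid, measured 11.31, 10.39 and 10.71 in miR-140-3p cells, 10.27, 10.17 and 10.20 in miR-126-5p cells, and 10.59, 10.15 and 10.85 in control. The mimic sets did not overlap each other, and the control spanned the gap between them. The differences were 0.28 ± 0.24 and −0.31 ± 0.24 vs. control and 0.59 ± 0.24 for miR-140-3p vs. miR-126-5p (unadjusted p = 0.0298, adjusted p = 0.512), and the last was 0.33 without miR-140-3p replicate 1. PSMD1, a large scaffold of the base, was the only Entrez row whose miR-140-3p arrays (13.26, 13.15 and 13.13) all exceeded control (12.86, 12.82 and 13.12), by 0.25 ± 0.16 (adjusted p = 0.716), while its miR-126-5p arrays (12.97, 13.33 and 13.16) overlapped control with a difference of 0.22 ± 0.16.

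The other 9 non-ATPase genes overlapped control with miR-140-3p, and their differences ran from −0.30 for PSMD2, which docks ubiquitin shuttles, to 0.10 for PSMD14, the deubiquitinase of the lid. With miR-126-5p the same genes ran from −0.30 for PSMD8, whose arrays (12.48, 12.33 and 12.45) were all below control (12.58, 12.62 and 12.99), to 0.10 for PSMD14. The base assembly chaperones PSMD5, PSMD9 and PSMD10, which are not part of the finished particle, differed by −0.07, −0.24 and −0.22 with miR-140-3p and by −0.19, 0.00 and −0.18 with miR-126-5p. PSMD9 measured 9.25 ± 0.26 in miR-140-3p cells, 9.49 ± 0.25 in miR-126-5p cells and 9.48 ± 0.35 in control (SD, n = 3 each).

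Counted by whether arrays overlapped, 7 of the 42 rows had all miR-140-3p arrays below all control arrays and 1 had them above, against 7.48% and 4.72% of all rows. For miR-126-5p the counts were 6 and 0 of 42, against 11.0% and 5.55% of all rows.

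The subunits moved with one another from array to array within a set. The mean log2 value over the 33 Entrez rows was 11.27, 10.92 and 11.15 on the miR-140-3p arrays, 11.04, 11.11 and 11.09 on the miR-126-5p arrays, and 11.29, 11.05 and 11.36 on the control arrays. The sets overlapped, and replicate 2 was the lowest array of both the miR-140-3p and the control set. On miR-140-3p replicate 2, 32 of the 33 genes were below their own mean over the 9 arrays, on control replicate 2 it was 23, and on control replicate 3 it was 1. Relative to those means, the deviation of the subunits was 0.13, −0.23 and 0.00 in miR-140-3p cells, −0.11, −0.03 and −0.05 in miR-126-5p cells, and 0.15, −0.09 and 0.22 in control. Over all 22582 rows above the median level it was 0.06, −0.04 and −0.05, then −0.03, −0.05 and −0.02, then −0.03, 0.04 and 0.12. The arrays farthest from 0 for the subunits, miR-140-3p replicate 2 and control replicate 3, were thus shifted less over the bright rows as a whole, and control replicates 1 and 2 were shifted to the other side. What sets these arrays apart was not tested.

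As a description over 9 arrays that share their hybridization and scaling, the mean pairwise correlation of the within-set deviations was 0.41 over the 33 Entrez rows, against 0.05 over the rows above the median level. It was 0.47 among the non-ATPase genes, 0.51 among the ATPases, 0.28 in the alpha ring and 0.29 in the beta ring. The alpha ring includes PSMA8 (mean 3.86) and the beta ring PSMB11 (4.94), both below the table median. No Entrez row of the ATPase or non-ATPase classes averaged under 9.40, so the classes compared are not alike in level. By this measure the alpha ring, which had the largest median difference from control with miR-140-3p, was not the class whose genes followed each other most within sets. Its mean deviation was −0.01, −0.27 and −0.05 in miR-140-3p cells, −0.08, −0.00 and −0.11 in miR-126-5p cells, and 0.17, 0.03 and 0.33 in control, so that on the deposited scale every mimic array was below every control array, the nearest being −0.00 and 0.03. In the other 3 classes the miR-140-3p arrays overlapped the control arrays, as in the non-ATPase class with 0.22, −0.19 and 0.03 against 0.13, −0.14 and 0.22 in control.

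**Figure D4:**
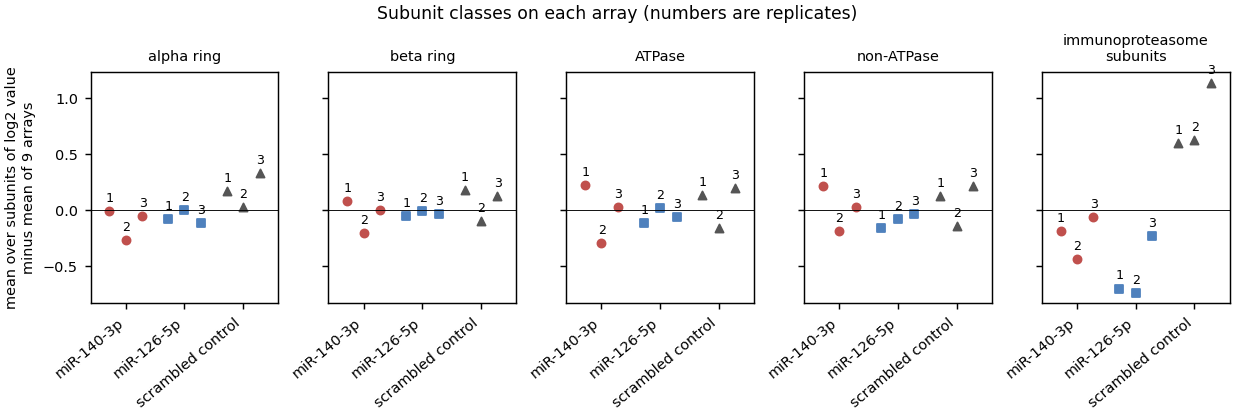
Mean over the subunits of a class of the log2 value minus the row's mean over 9 arrays (vertical axis), for each array, with replicate numbers beside the points. Alpha ring arrays of both mimics (at most −0.00) lie below the control arrays (at least 0.03), the other constitutive classes overlap, and the 3 immunoproteasome subunits are separated by more, at −0.06 or less with either mimic and at 0.60 or more in control.

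The immunoproteasome subunits PSMB8, PSMB9 and PSMB10 replace PSMB5, PSMB6 and PSMB7 in the core that interferon induces, and they were set beside their constitutive counterparts. PSMB8 measured 11.02, 10.58 and 10.89 in miR-140-3p cells, 10.66, 10.38 and 10.71 in miR-126-5p cells, and 12.21, 11.87 and 12.16 in control. It fell to 0.421-fold of control under miR-140-3p (adjusted p = 0.00932) and to 0.354-fold under miR-126-5p (adjusted p = 0.0017), each with an SE of 0.18 on the log2 scale. PSMB9 measured 11.09, 10.53 and 11.25 in miR-140-3p cells, 9.97, 10.03 and 10.82 in miR-126-5p cells, and 11.73, 12.18 and 12.59 in control. In miR-126-5p vs. control it fell by 1.89 ± 0.28 (adjusted p = 0.00862), and its difference of −1.21 ± 0.28 with miR-140-3p did not pass (adjusted p = 0.184). PSMB10 differed by −0.60 ± 0.24 and −0.67 ± 0.24 (adjusted p = 0.528 and 0.35), which became −0.33 and −0.39 without control replicate 3.

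Within an array, PSMB8 minus PSMB5 was 0.40, 0.23 and 0.29 in miR-140-3p cells, 0.04, −0.34 and 0.11 in miR-126-5p cells, and 1.40, 1.64 and 1.49 in control. The sets did not overlap in this within-array difference, which does not show that PSMB5 was constant. It differed from control by −1.21 in the miR-140-3p set and by −1.57 in the miR-126-5p set, each with an exact two-sided permutation p of 0.1, the smallest that 3 arrays against 3 allow (0.18 after adjustment over 9 such tests), so no such test could pass 0.05. PSMB9 minus PSMB6 differed from control by −0.87 and −1.71 (exact permutation p = 0.1 each, 0.18 adjusted), and PSMB10 minus PSMB7 by −0.41 and −0.52 (exact permutation p = 0.4 and 0.2, 0.45 and 0.257 adjusted). The interferon-inducible activator subunit PSME1 measured 12.47, 12.59 and 12.12 in miR-140-3p cells, 12.27, 12.02 and 12.48 in miR-126-5p cells, and 13.17, 13.37 and 13.29 in control. PSME1 fell by 1.02 ± 0.18 in miR-126-5p vs. control (adjusted p = 0.0319), while the difference with miR-140-3p was −0.89 ± 0.18 (adjusted p = 0.102). PSME2 was not analysed here.

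Some of these calls rest on the setting. PSMB8 with miR-140-3p lost its call without miR-140-3p replicate 2 (adjusted p = 0.0617), without control replicate 3 (0.0686), without moderation of the variance (0.214) and with every row of the table fitted (0.0637), and with miR-126-5p only without moderation (0.119). PSMB9 with miR-126-5p was lost under 6 of 18 alternatives, among them those without miR-126-5p replicate 1 (0.068) or 2 (0.0658) and without control replicate 2 (0.0572) or 3 (0.0619). For PSME1 it was 9 of 18, among them the replicate block (0.0879) and those without miR-126-5p replicate 1 (0.155) or 2 (0.183) and without control replicate 2 (0.144) or 3 (0.15).

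**Figure D5:**
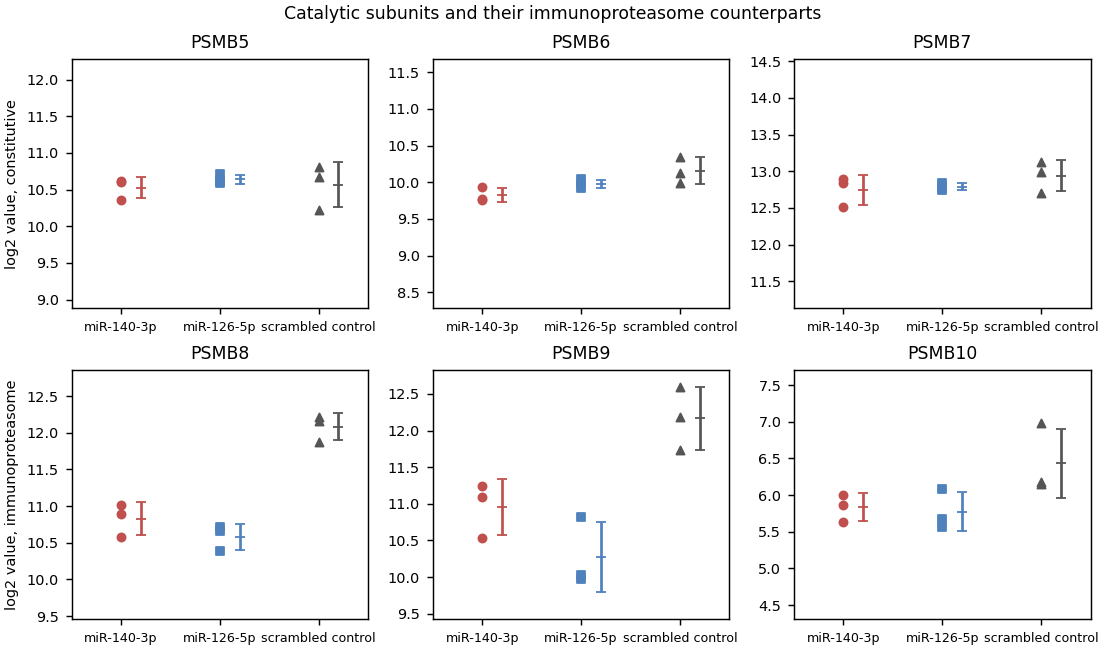
Log2 values (vertical axes, each spanning the same range) of the catalytic subunits PSMB5, PSMB6 and PSMB7 (top) and of PSMB8, PSMB9 and PSMB10 (bottom) on each array, with the mean and SD of 3 arrays beside the points. PSMB8 has mimic arrays at 11.02 or less and control arrays at 11.87 or more, whereas the PSMB5 sets overlap.

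Genes that build, regulate or feed the proteasome were read from lists written from general knowledge, and none of their rows passed the adjusted p apart from PSMB8, PSMB9 and PSME1. Of 7 rows of the core assembly chaperones, 3 of them of PSMG4, all 7 were below control with miR-140-3p (median −0.19). Of all rows, 53.6% were below (median −0.02). At the methods' thresholds 2 of the 7 were lower, where 5.16% of all rows were. With miR-126-5p 4 of the 7 were below (median −0.14), against 56% of all rows (median −0.04). At the thresholds 1 was lower, where 6.83% of all rows were. POMP, the maturation factor of the core, measured 12.29, 12.06 and 12.21 in miR-140-3p cells, 12.32, 12.11 and 12.54 in miR-126-5p cells, and 12.54, 12.48 and 12.70 in control. Its miR-140-3p arrays were below all control arrays (difference −0.39 ± 0.17, adjusted p = 0.549), and its miR-126-5p arrays overlapped them (−0.25 ± 0.17). The other row was 1 of 3 rows of PSMG4, an alpha ring assembly chaperone, at −0.73 ± 0.23 (adjusted p = 0.407) and, with miR-126-5p, −0.59 ± 0.23 (adjusted p = 0.408), while the other PSMG4 rows differed by −0.25 and −0.02 with miR-140-3p.

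NFE2L1 measured 15.86, 15.64 and 15.57 in miR-140-3p cells, 15.20, 15.39 and 15.36 in miR-126-5p cells, and 15.59, 15.82 and 15.88 in control. The miR-126-5p arrays were below both other sets, which overlapped. It differed by −0.07 ± 0.16 in miR-140-3p cells and −0.45 ± 0.16 in miR-126-5p cells (adjusted p = 0.354), and by 0.38 ± 0.16 for miR-140-3p vs. miR-126-5p (adjusted p = 0.531). Of the 8 rows of transcriptional regulators, 0 passed the methods' thresholds in miR-140-3p cells and 2 in miR-126-5p cells, NFE2L1 and the heat shock factor HSF1, both lower, while of all rows 5.16% were lower and 3.35% higher in the miR-140-3p comparison and 6.83% lower and 3.57% higher in the miR-126-5p comparison.

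Among the 10 rows of proteasome partners, PSMF1, a core inhibitor in vitro, differed by −0.25 ± 0.24 in miR-140-3p cells and −0.86 ± 0.24 in miR-126-5p cells (adjusted p = 0.223), and the ubiquitin receptor ADRM1 by 0.16 ± 0.25 and −0.58 ± 0.25 (adjusted p = 0.439). ADRM1, like the receptor PSMD4, was higher in miR-140-3p vs. miR-126-5p, by 0.74 ± 0.25 (adjusted p = 0.459). The small lid subunit SEM1 ran the other way, at −0.17 (miR-140-3p) and 0.42 (miR-126-5p) against control and −0.58 for miR-140-3p vs. miR-126-5p (adjusted p = 0.459). Of 12 rows of ubiquitin genes and shuttles, 5 were higher and 0 lower at the methods' thresholds in miR-140-3p vs. miR-126-5p, among them the ubiquitin-activating enzyme UBA1 (0.74) and the shuttles UBQLN2 (0.56) and UBQLN4 (0.65), and their median was 0.32, against 0.02 over all rows, of which 5.07% were higher and 3.99% lower. Against control, 6 of the 12 were below with miR-140-3p (median 0.02) and 11 of 12 with miR-126-5p (median −0.22). The ubiquitin gene UBB differed by −0.01 and 0.00 from control.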

How the data were processed

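Total RNA of HCN-2 cells was hybridized to 9 Human Clariom arrays, named Clariom D in the design text and Clariom S in the methods. The authors deposited log2 values, a column for each array. Tools in the submitters' processing notes are Partek, Affymetrix Expression Console and RMA, without versions. RMA corrects background, quantile-normalizes and summarizes probes, which can remove a change shared by most genes. The values carry no detection call, and the number of arrays limits the precision. Sets and replicate numbers came from the labels. Symbols came from the platform annotation: 36176 rows had 1 symbol, 1119 several, 99920 none listed, and 1530 were control rows.

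All 9 arrays were fitted at once with limma 3.58.1 (R 4.3.3), without covariates, with Benjamini-Hochberg adjustment over the 36176 rows. The fit was also run on simulated rows that varied independently of one another. The subunit rows moved together within sets, so the simulation does not describe them. Calls used an adjusted p under 0.05 or the methods' unadjusted p under 0.05 with a log2 difference over 0.32 in size. A further 18 alternatives were run. The members and lists were chosen with earlier results of these data known. Chosen for naming were the catalytic and tissue-restricted subunits, members past either rule, the lowest p and the extreme means of each class, every row of multi-row genes, and PSMB8, PSMB9, PSMB10 and PSME1. Array values were printed for some of these, and only differences or means for others, such as PSMB2, PSMC1 and PSMB11. POMP, PSMG4, NFE2L1, HSF1, PSMF1, ADRM1, SEM1, UBA1, UBQLN2, UBQLN4 and UBB were picked from their lists after their values were seen. So were the markers MAP2, NEFM, NEFL, SNAP25, ELAVL4, RBFOX3, SYN1, COL1A1, PTPRC, CD68, AIF1 and P2RY12.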

Additional observations from a re-analysis of the deposited data

How the results depend on the processing

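No member passed the adjusted p under any of the 18 alternatives, where the lowest was 0.0521 in miR-140-3p vs. control, 0.072 in miR-126-5p vs. control and 0.319 between the mimics. The count of rows past the methods' thresholds in miR-140-3p vs. control was 3 with 2 sets per fit, against 6, and ran from 2 to 8 without 1 array. In miR-126-5p vs. control it was 3 and ran from 1 to 4 without 1 array. In miR-140-3p vs. miR-126-5p it was 4, became 1 without moderation of the variance and 2 with 1 row per gene, and ran from 1 to 5 without 1 array. When 1 array was left out, the alpha ring median ran from −0.42 to −0.26 in miR-140-3p vs. control and from −0.26 to −0.10 in miR-126-5p vs. control. PSMC6 (row without an Entrez identifier) in miR-140-3p vs. control, the PSMC4 row with a mean of 5.02 in both comparisons of miR-140-3p and PSMD4 in miR-126-5p vs. control kept the methods' thresholds under every alternative that kept the row, whereas PSMA7 lost them under 10 of 18, PSMA2 under 8, PSMA6 under 7 for miR-140-3p and 5 for miR-126-5p, PSMA4 under 5 and the Entrez row of PSMC6 under 3. In miR-140-3p vs. control, PSMA2 lost them without miR-140-3p replicate 1 (unadjusted p = 0.095) or 3 (0.0638), control replicate 1 (0.102) or 3 (0.117) and miR-126-5p replicate 3 (0.0505). PSMA4 lost them without miR-140-3p replicate 2 (0.143), control replicate 2 (0.0523) or 3 (0.0838), and PSMA6 without any 1 miR-140-3p array (0.0579 to 0.0789) and without control replicate 1 (0.074) or 3 (0.12). The Entrez row of PSMC6 lost them without miR-140-3p replicate 2 (0.115), control replicate 1 (0.0688) or 3 (0.0595). In miR-126-5p vs. control, PSMA6 lost them without miR-126-5p replicate 1 (0.0715) or 3 (0.0586) and control replicate 1 (0.0506) or 3 (0.0827). Between the mimics, the PSMC6 row without an Entrez identifier lost them without moderation of the variance (0.0856). It also lost them without miR-140-3p replicate 1 (0.119) or miR-126-5p replicate 1 (0.0574). PSMD3 lost them without miR-140-3p replicate 1 (0.154) or miR-126-5p replicate 2 (0.068) or 3 (0.0624), and PSMD4 without 5 of the arrays in turn. The cause was not tested. The replicate numbers were not taken to pair the arrays: of 9 same-numbered pairs, the correlation of deviations ran from −0.0609 to 0.107 and was over 0.1 in 2, and 4 arrays correlated best with their own number. With the replicate number as a block, the counts were 5, 3 and 4 and the medians of the 42 rows −0.07, −0.15 and 0.03, in the order of comparisons above. Under the block PSMA6 lost its call in miR-140-3p vs. control (0.0543), and in miR-126-5p vs. control PSMA7 lost its call (0.0536) and the PSMC6 row without an Entrez identifier gained 1 (0.0446). With 3 arrays a set, a difference smaller than the half-width of its interval did not reach an unadjusted limma p of 0.05. Larger ones could be missed too. At the adjusted p even −1.40, for the PSMC6 row without an Entrez identifier in miR-140-3p vs. control, did not pass (adjusted p = 0.154).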
